A study of Macaca mulatta with 10 samples.

Results

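The comparison set 96 h of pulsatile infusion with the gonadotropins FSH and LH against vehicle in the testes of wild-type juvenile male rhesus macaques, over the genes and gene families that lie outside the usual Leydig, Sertoli and germ cell lists. It used 7 of the 10 libraries of the series, chosen by their treatment labels: 4 animals at 96 h (TP15, TP16, TP17 and TP18, all 14 months old) and 3 vehicle animals (TP07, TP09 and TP11, which were 24, 14 and 15 months old). The duration of the vehicle infusion is not given in the sources used here. The other 3 animals (TP08, TP10 and TP12, which were 22, 14 and 15 months old) received FSH and LH for 48 h. They shared the estimate of the spread between animals, and their values are given beside those at 96 h where they bear on a result. Each library was total RNA from fragments of the right testis of 1 animal. Per-animal values below are listed in the order of animals just given. Because all 96 h animals carry later numbers than all other animals, a batch by animal number and the 96 h treatment cannot be told apart.

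FSH acts through its receptor on Sertoli cells and LH through its receptor on Leydig cells, and both receptors raise cyclic AMP. In the juvenile primate the pituitary releases little of either hormone, and the testis holds immature Sertoli cells that can still divide, spermatogonia, and an interstitium with fibroblast-like cells, vessels and macrophages. Genes outside the classic lists report on the dividing, metabolic, vascular and immune compartments of the same organ. In whole tissue, fewer cells of a type and less RNA per cell cannot be told apart.

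Library totals ran from 21824233 to 29230966 counts over the vehicle and 96 h animals, and a floor of 3 counts corresponds to at most 0.137 CPM, the count scaled to the size of the library. The table lists 26813 loci that reached 1 CPM in at least 3 libraries, of which 14120 stand for a distinct gene symbol. A gene that reached this level only in the 96 h group could enter the table for that reason, so the family counts below are descriptions. By edgeR's quasi-likelihood test with Benjamini-Hochberg adjustment at 0.05 over all loci, 2836 loci were higher (10.6%) and 1848 lower (6.89%) at 96 h. Among loci standing for a symbol, 2436 were higher (17.3%) and 974 lower (6.9%). Their median log2 fold change was 0.08, and these shares are the background for every family. The split between higher and lower moved with scaling: upper-quartile scaling gave 1442 higher and 1978 lower symbols, and 1687 higher and 3532 lower loci, with the median log2 fold change of symbols at -0.07. Under that scaling the medians of 2 families turned from positive to negative, ribosome biogenesis (-0.08) and the DNA repair genes outside homologous recombination (-0.12). The same scaling brought the number of lower calls to 3 for serpins, 3 for glutathione and thioredoxin genes, 2 for intraflagellar transport, 2 for vasoactive peptides, 2 for Fanconi and homologous recombination genes, and 1 each for the condensin list, the E2F regulators and the serine and folate enzymes. Leaving out single animals also moved the number of higher symbols, to 1407 without TP07 and 1418 without TP11. The lower symbols numbered 330 without TP07, 649 without TP09, 382 without TP11 and 479 without TP17.

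Markers fixed for other cell types gave a mixed picture. Of 9 measured testis identity markers 4 rose and 2 fell, with log2 fold changes from -0.84 to 3.33. Among them AMH, WT1 and SOX9 were present in every library, with AMH between 715 and 1215 CPM in the vehicle and 96 h animals. Of 14 measured macrophage markers, 6 rose (AIF1, CD14, FCER1G, CYBB, LYZ and F13A1), none fell and the list's median log2 fold change was 1.15. Their summed level was 130, 260 and 256 CPM in the vehicle animals and 525, 269, 517 and 397 CPM at 96 h. Endothelial markers summed to 119 to 163 CPM in vehicle and 93.7 to 195 CPM at 96 h, where 1 of 13 (FLT1) fell and none rose. Of 8 measured lymphocyte markers CD247 alone was called, as lower, and all 8 had negative log2 fold changes (median -0.54). Their summed level was 32.8, 53.5 and 56.9 CPM in vehicle and 16.8, 23.8, 28.0 and 28.9 CPM at 96 h. None of 5 erythroid and 2 mast cell markers passed the test. Of 9 nerve and glia markers 2 rose (TUBB3 among them) while ERBB3 and CDH19 fell. Erythroid markers summed to 426 CPM in TP15 against 126 to 169 CPM in the other 96 h animals.

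The 24 genes with the most extreme log2 fold changes, 12 in each direction, were taken among called symbols outside the classic Leydig, Sertoli and germ cell lists. Their loci also carried 1 gene symbol in the deposited annotation, a mean level of at least 0 on the log2 CPM scale and groups that did not overlap. Signalling, secreted and S-phase genes were among the rises. RASD1, a small Ras-like GTPase first known as a dexamethasone-induced gene, lies at chr16:17629355-17631273 on rheMac8, the build of all coordinates here. The table gives loci that overlap the same start and end, so coordinates bound the run of overlapping loci rather than 1 gene. Of the 139 genes named by rule, 36 share such bounds with another locus, 31 of them with one on the other strand. Whether the counting used strand is not given in the sources used here, so reads from partners on opposite strands cannot be told apart. RASD1 was at 2.31, 3.63 and 4.26 CPM in the vehicle animals and at 54.7, 46.8, 38.4 and 33.2 CPM at 96 h. Its log2 fold change was 3.67 ± 0.23 (SE, adjusted p = 6.29e-05), and the 48 h animals were at 30.8, 30.4 and 29.8 CPM. Every animal given gonadotropin thus stood above every vehicle animal, and the 96 h and 48 h groups were not called different (adjusted p = 0.19).

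DEFB123, a beta-defensin gene (chr10:32588318-32647166), showed the largest log2 fold change of the 24 genes, 4.07 ± 0.42. Its level was 0.363, 0.359 and 0.84 CPM in vehicle against 7.99, 14.0, 5.11 and 8.50 CPM at 96 h. GPR55, a G protein-coupled receptor for lysophospholipids (chr12:113345201-113391092), went from 0.33, 0.719 and 0.582 CPM to 6.97, 7.45, 5.52 and 7.84 CPM.

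CLEC12B, an inhibitory C-type lectin receptor, was at 1.78, 0.998 and 3.62 CPM in vehicle and between 23.6 and 24.9 CPM in all 96 h animals. Its locus, chr11:10342912-10449537, shares its boundaries with CLEC1A and CLEC1B on the other strand.

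TK1, the S-phase thymidine kinase, rose from 1.29, 1.68 and 3.20 CPM to 22.0, 19.5, 21.2 and 18.9 CPM. FAM64A (also called PIMREG), a regulator of the metaphase to anaphase transition, rose from 0.363, 0.719 and 1.23 CPM to 7.75, 6.69, 5.92 and 5.53 CPM. It was the only one of the 12 rises that was also called higher at 96 h than at 48 h, with a log2 difference of 2.09 (adjusted p = 0.035), its 48 h levels being 0.911, 1.33 and 2.30 CPM. The histone genes HIST1H1B and HIST1H2BO had log2 fold changes of 3.32 and 3.09, and reads from near-identical histone genes may be shared between them, which makes the value of either one uncertain.

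Another 2 of the 12 rises were uneven within the 96 h group. SPON1, the secreted matrix protein spondin 1, was at 7.83, 8.58 and 7.53 CPM in vehicle and at 75.4, 29.0, 118 and 42.0 CPM at 96 h. PLAC9, a small secreted protein gene, was at 4.03, 7.55 and 6.27 CPM in vehicle and at 73.3, 36.0, 75.9 and 35.2 CPM at 96 h. In both, TP15 and TP17 stood higher than TP16 and TP18, as they did in the summed macrophage markers and in MYH11, and the part of those cells in the result was not tested.

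**Figure D1:**
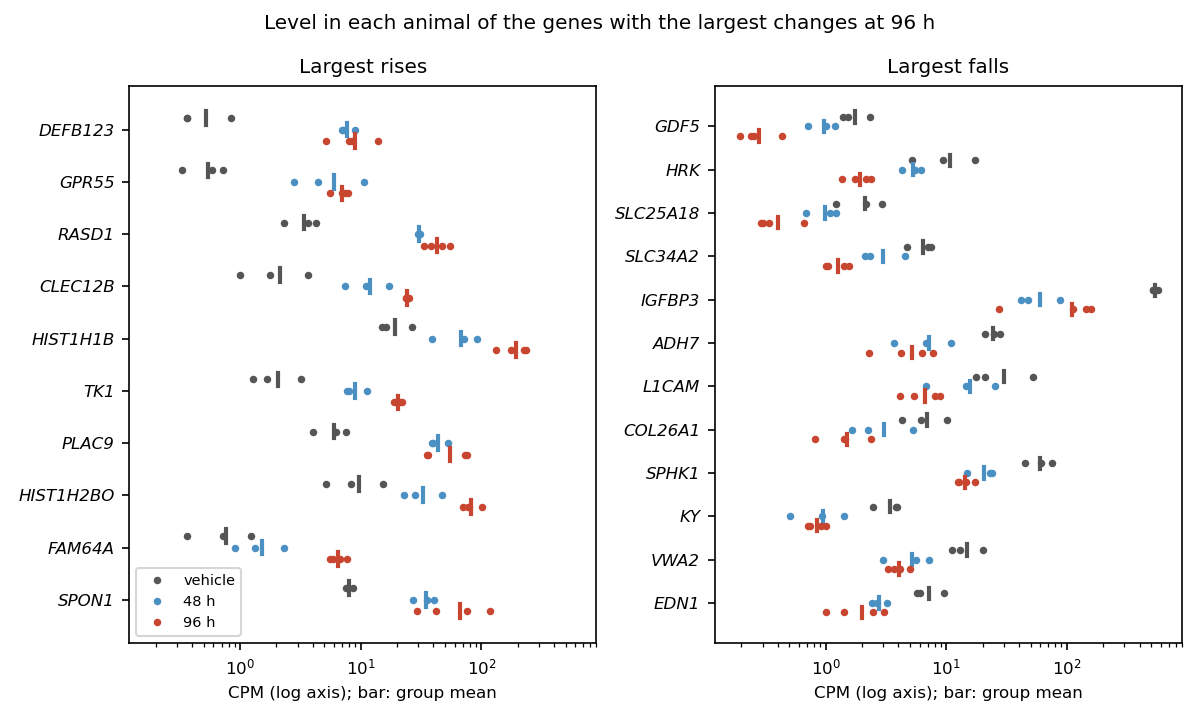
Level (CPM, log axis) of 10 of the 12 genes with the largest rises and the 12 with the largest falls at 96 h, with 1 point per animal (3 vehicle, 3 at 48 h, 4 at 96 h) and a vertical bar at each group mean. Vehicle and 96 h points do not overlap for any gene shown, which was a condition of their choice, and RASD1 at 96 h lies between 33.2 and 54.7 CPM against at most 4.26 CPM in vehicle.

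Growth factor, transport and lipid signalling genes were among the falls. SPHK1, the kinase that makes sphingosine 1-phosphate (chr16:70136377-70141668), was at 74.8, 60.6 and 44.6 CPM in vehicle and at 17.2, 12.6, 14.4 and 12.5 CPM at 96 h, a log2 fold change of -2.08 ± 0.21 (adjusted p = 0.000281). The 48 h animals, at 14.9, 23.0 and 24.1 CPM, were also below every vehicle animal. GDF5, a ligand of the bone morphogenetic protein family (chr10:28686374-28691482), fell from 2.34, 1.40 and 1.52 CPM to 0.242, 0.434, 0.253 and 0.196 CPM, with the 48 h animals between at 0.708, 1.01 and 1.20 CPM. HRK, a BH3-only activator of cell death, fell from 17.3, 5.23 and 9.40 CPM to 1.74, 2.17, 1.37 and 2.39 CPM.

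IGFBP3, which binds insulin-like growth factors in plasma and tissue (chr3:63002610-63020823), was the most abundant of the 12 falls. It stood at 574, 515 and 519 CPM in vehicle and at 113, 27.6, 144 and 157 CPM at 96 h, and the 48 h animals were lower than most of these at 42.0, 88.3 and 47.5 CPM. The call was lost when TP07 and TP08, both over 20 months old, were left out together (log2 fold change -2.23, adjusted p = 0.062), and so was that of COL26A1 (-1.78, adjusted p = 0.061). SLC34A2, a sodium-phosphate cotransporter, fell from 7.10, 4.75 and 7.46 CPM to 1.55, 1.05, 1.01 and 1.41 CPM. ADH7, an alcohol dehydrogenase able to oxidise retinol, fell from 24.7, 21.0 and 28.1 CPM to 6.34, 2.28, 7.74 and 4.23 CPM.

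L1CAM, a neural cell adhesion molecule, was at 52.6, 20.9 and 17.5 CPM in vehicle and at 8.08, 8.79, 4.15 and 5.37 CPM at 96 h. TP07 stood far above the other vehicle animals, and without it the log2 fold change of -1.54 no longer passed (adjusted p = 0.066). The remaining falls were SLC25A18 (a mitochondrial glutamate carrier, -2.37), KY (a muscle protein, -1.99), VWA2 (a matrix protein, -1.87) and EDN1 (endothelin 1, -1.84), all on the log2 scale.

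Kinesins are motor proteins that walk along or take apart microtubules, and the superfamily divides by role. One set builds the spindle, moves chromosomes and closes the midbody in dividing cells, and another carries cargo in the cytoplasm and the cilium. Of 13 mitotic kinesins, all measured, 10 rose and none fell, against the 17.3% of all symbols called higher, and the median member stood at 1.25 on the log2 scale. In 11 of the 13 the 96 h animals all stood above the vehicle animals, against 24.7% of all symbols. Of 28 measured transport and ciliary kinesins (30 listed), 3 rose (10.7%, under the 17.3% of all symbols) and 2 fell (7.14%, near the 6.9% of all symbols). Their median change was 0.15 (log2), and 6 stood wholly higher and 2 wholly lower (12.9% of all symbols were wholly lower). With upper-quartile scaling the numbers of mitotic kinesins called stayed within 1.5 times of these.

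KIF20A, which recruits mitotic kinases to the central spindle for cytokinesis, was at 8.52, 9.22 and 13.02 CPM in vehicle and at 53.8, 48.2, 51.4 and 48.9 CPM at 96 h. Its log2 fold change was 2.30 ± 0.22 (adjusted p = 0.000219), and its locus at chr6:135850135-135933614 shares its boundaries with BRD8 and CDC23 on the other strand. KIF11, the tetrameric motor that pushes spindle poles apart (chr9:87810961-87880026), rose from 19.9, 20.4 and 29.9 CPM to 83.3, 85.2, 99.2 and 91.7 CPM. The vehicle and 96 h animals were separated by more than the range within either group in both genes. KIFC1, a minus-end motor that bundles spindle poles (chr4:34210553-34262429), rose from 13.1, 15.7 and 16.4 CPM to 44.8, 45.7, 42.9 and 47.7 CPM, and KIF23, the motor of the centralspindlin complex at the midbody (chr7:46394477-46429408), rose from 19.5, 17.8 and 26.3 CPM to 51.9, 55.9, 60.5 and 56.3 CPM.

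The other mitotic kinesins that rose were KIF18B, KIF4A, KIF14, KIF15, CENPE and KIF20B, with log2 fold changes from 2.22 down to 0.74. KIF2C, which takes apart microtubules at the centromere, had a log2 fold change of 0.48 and narrowly missed the threshold (adjusted p = 0.054), while KIF18A (0.46) and KIF22 (0.22) overlapped between groups. The 48 h animals were nearer to vehicle for these motors: KIF20A stood at 13.2, 12.3 and 22.1 CPM and KIF23 at 21.0, 20.1 and 31.0 CPM. Tested directly, 10 of the 13 mitotic kinesins were higher at 96 h than at 48 h, where 1.26% of all symbols were called higher and 0.439% lower. None of the 28 transport and ciliary kinesins was called between 48 h and 96 h.

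Among the transport motors, KIF21A, a motor that stabilises microtubule ends, rose from 67.8, 63.1 and 91.2 CPM to 115, 177, 124 and 143 CPM (log2 fold change 0.92 ± 0.17, adjusted p = 0.00529). KIF13A, which carries endosomal cargo, fell from 135, 135 and 114 CPM to 95.6, 89.3, 92.9 and 94.2 CPM (log2 fold change -0.46 ± 0.08, adjusted p = 0.00314). The 48 h animals stood at 162, 137 and 136 CPM for KIF21A and at 95.8, 94.2 and 96.2 CPM for KIF13A, on the same side of all vehicle animals as the 96 h group. KIF2A, counted in this list although not a transport motor, rose by less (0.48). It lost its call without both animals over 20 months old (adjusted p = 0.050). The kinesin light chain KLC2 (0.54) lost its call without any one of TP07, TP09, TP11, TP16 or TP18 (adjusted p = 0.053 to 0.11), and KLC4 (-0.32) without any one animal but TP18 (adjusted p = 0.060 to 0.16). KIF5B, the main conventional kinesin and the most abundant member, had a log2 fold change of 0.22 (adjusted p = 0.14).

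**Figure D2:**
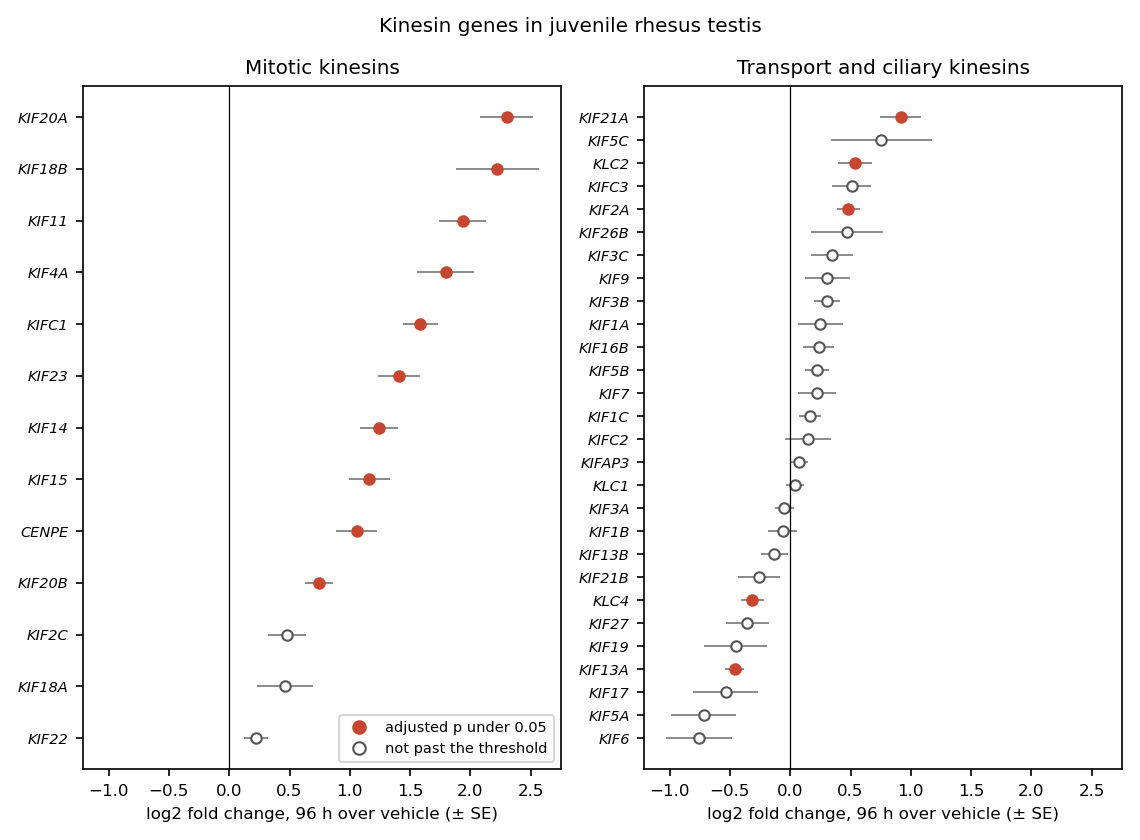
Log2 fold change at 96 h over vehicle with its SE for the 13 mitotic kinesins (left) and the 28 measured transport and ciliary kinesins (right). Filled points passed the adjusted p of 0.05: 10 of 13 on the left, all to the right of 0, and 5 of 28 on the right, of which 3 lie above 0 and 2 below.

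The centromere and kinetochore genes, which assemble the platform on which spindle microtubules attach, rose in the same animals as the mitotic motors. Of 28 measured (32 listed), 20 rose and none fell, the list's median being 1.00 (log2). CENPI (chrX:95282380-95346938) rose from 5.09, 6.51 and 5.82 CPM to 18.1, 22.0, 22.2 and 18.2 CPM (log2 fold change 1.79 ± 0.15, adjusted p = 0.00014). CENPW rose from 3.24, 4.11 and 3.52 CPM to 14.6, 11.2, 16.8 and 14.2 CPM. All 4 members of the NDC80 complex, which binds the microtubule, were called, with log2 fold changes of 2.69 for SPC24, 2.41 for SPC25, 2.21 for NUF2 and 1.68 for NDC80. CENPC, the scaffold on centromeric nucleosomes, had a log2 fold change of 0.12 and did not pass. Between 48 h and 96 h, 12 of the 28 were called higher and none lower.

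Condensins fold mitotic chromosomes, cohesins hold sister chromatids together, and separase cuts them apart. Of 22 measured genes (24 listed), 13 rose and none fell (median log2 change 0.46). The condensin subunit NCAPD2 (chr11:6731014-6769505, boundaries shared with MRPL51 on the other strand) rose from 24.6, 26.8 and 26.5 CPM to 84.2, 72.5, 74.7 and 81.4 CPM (log2 fold change 1.59 ± 0.15, adjusted p = 0.000222). ESPL1, which encodes separase, rose from 6.34, 8.38 and 6.82 CPM to 20.3, 21.2, 19.0 and 21.9 CPM, and its partner and inhibitor PTTG1 (securin) had a log2 fold change of 1.45. SMC4, the other condensin leader, rose from 106, 108 and 132 CPM to 226, 275, 325 and 269 CPM, in a locus whose boundaries are shared with IFT80 on the other strand. The core cohesin genes changed little or did not pass: SMC1A rose by 0.34, RAD21 and SMC3 had log2 fold changes of 0.29 and 0.07 without passing, and the loader NIPBL and releaser WAPL of 0.15 and -0.14.

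Spindle pole and centriole genes divided in a like manner. Of 22 measured (26 listed), 12 rose and none fell, and the median member stood at 0.42 on the log2 scale. NUSAP1, which bundles spindle microtubules around chromatin, rose from 8.32, 10.9 and 17.03 CPM to 76.4, 67.5, 83.8 and 69.9 CPM, the largest log2 fold change of the list at 2.62 ± 0.27 (adjusted p = 0.000386). ASPM, a pole-focusing protein, had a log2 fold change of 2.44, and CEP55, which recruits the abscission machinery, rose from 4.59, 4.43 and 8.04 CPM to 27.4, 22.8, 35.1 and 28.5 CPM. The pericentriolar scaffold gene PCNT (-0.09), the centriole length factor CENPJ (0.08) and 4 of the 6 measured augmin genes (HAUS1, HAUS5, HAUS6 and HAUS8, 0.10 to 0.27) did not pass.

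The E2F, RB and MuvB regulators decide whether such genes are transcribed: E2F proteins open S phase, RB family proteins hold them back, and the MuvB core joins MYBL2 and FOXM1 to open the G2 and M programme. Of 19 measured (21 listed), 13 rose and none fell, the list's median being 0.63 (log2). FOXM1 (chr11:2986526-3009443) rose from 6.51, 5.87 and 7.82 CPM to 27.2, 23.8, 21.5 and 22.8 CPM (log2 fold change 1.82 ± 0.23, adjusted p = 0.000764). MYBL2 rose from 10.3, 9.14 and 11.8 CPM to 29.9, 26.2, 28.2 and 28.0 CPM. Both were also higher at 96 h than at 48 h, by 1.33 and 0.81 on the log2 scale (adjusted p = 0.026 and 0.045).

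The activator E2Fs E2F2 and E2F3 had log2 fold changes of 1.65 and 1.28, and the atypical repressors E2F7 and E2F8 of 2.26 and 2.18. The repressors E2F5 (-0.21) and E2F6 (-0.29) did not pass. Of the pocket proteins, RB1 rose by 0.93 and RBL1 from 37.2, 38.3 and 40.7 CPM to 59.8, 59.7, 65.7 and 61.4 CPM (log2 fold change 0.67 ± 0.08, adjusted p = 0.000511), whereas RBL2, the pocket protein of resting cells, stood at a mean of 112 CPM in both groups.

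DNA repair genes were split by pathway. Of 28 measured Fanconi anaemia and homologous recombination genes (30 listed), which act on forks and breaks in S phase, 17 rose and 1 fell (median log2 change 0.65). Of 35 genes of other repair pathways, all measured, 7 rose and 2 fell (shares near the background), with a median of 0.03. The number of higher calls in this second list moved to 3 without TP07, TP09 or TP11, to 4 without TP15, TP17 or TP18, and to 2 with upper-quartile scaling, under which its lower calls rose to 5. Without both animals over 20 months old it held 3 higher calls and 1 lower. In the first list RAD51AP1, an accessory factor of strand exchange, rose from 7.0, 4.63 and 9.50 CPM to 26.7, 29.3, 35.9 and 25.9 CPM. BRCA1 (chr16:48915415-49005844) rose from 45.8, 39.6 and 46.0 CPM to 81.6, 104, 104 and 95.1 CPM (log2 fold change 1.13 ± 0.10, adjusted p = 0.000182). EXO1, the nuclease that resects ends, and POLQ, the polymerase of end joining at short homologies, had log2 fold changes of 1.68 and 1.55.

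FANCE, of the Fanconi core complex, was the 1 gene of the first list called lower (-0.39), and its call was lost without any one of TP07, TP09, TP11, TP16 or TP17 (adjusted p = 0.075 to 0.12). In the second list the glycosylase NEIL3, which acts in S phase, rose from 3.67, 5.99 and 6.75 CPM to 16.6, 15.0, 22.0 and 17.3 CPM. PRKDC, the kinase of non-homologous end joining, rose from 478, 466 and 512 CPM to 657, 777, 763 and 685 CPM (log2 fold change 0.57 ± 0.09, adjusted p = 0.00229). Its partners XRCC5 (0.12), XRCC6 (-0.08), XRCC4 (0.14) and LIG4 (0.20) did not pass. PMS2, a mismatch repair gene, fell from 44.5, 42.0 and 42.7 CPM to 30.9, 30.6, 32.1 and 31.8 CPM. The PMS2 locus shares its boundaries with EIF2AK1 and AIMP2. MSH6 (0.30), also of mismatch repair, and the excision nuclease ERCC5 (-0.27) each lost their call without any one of 5 animals (adjusted p = 0.051 to 0.11 for both genes), and PMS2 was then the 1 lower call without TP07, TP11, TP15 or TP17.

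The nuclear lamina and import list holds the proteins that line the inner nuclear membrane, tether it to the cytoskeleton and carry cargo through the pore. Of 28 measured (30 listed), 15 rose and 2 fell (median log2 change 0.34). Under upper-quartile scaling 9 were higher. LMNB1, the B-type lamin (chr6:124334273-124655929), rose from 42.0, 39.6 and 43.9 CPM to 88.7, 91.5, 89.1 and 90.5 CPM (log2 fold change 1.10 ± 0.08, adjusted p = 6.85e-05), while the A-type lamin gene LMNA had a log2 fold change of -0.02. SUN1 and SUN2 encode the paired inner-membrane proteins of the bridge to the cytoskeleton, and they moved in opposite directions. SUN2 rose from 93.7, 77.9 and 74.1 CPM to 160, 132, 139 and 133 CPM (log2 fold change 0.78), and SUN1 fell from 350, 298 and 313 CPM to 192, 175, 220 and 165 CPM (log2 fold change -0.77 ± 0.12, adjusted p = 0.0021). Of the outer-membrane partners, SYNE1 fell by 0.33 and lost its call without any one animal but TP18 (adjusted p = 0.054 to 0.14), and SYNE2 had a log2 fold change of -0.04. The exportin XPO1 (0.57), RANBP1 (0.55) and the importins IPO5 (0.50), IPO9 (0.40) and KPNB1 (0.32) rose by smaller amounts.

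Across the 4 animals at 96 h the cell division families were even. The median log2 deviation from the vehicle mean was 1.08, 1.40, 1.32 and 1.14 for mitotic kinesins and 0.83, 1.03, 1.09 and 1.00 for kinetochore genes. In the 48 h animals the same medians were 0.08, -0.04 and 0.56, and 0.43, 0.22 and 0.55, with TP12 the highest for both families. Neither range overlapped that at 96 h. The matrix, complement and chemokine families were uneven instead, with TP15 and TP17 above TP16 in each.

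**Figure D3:**
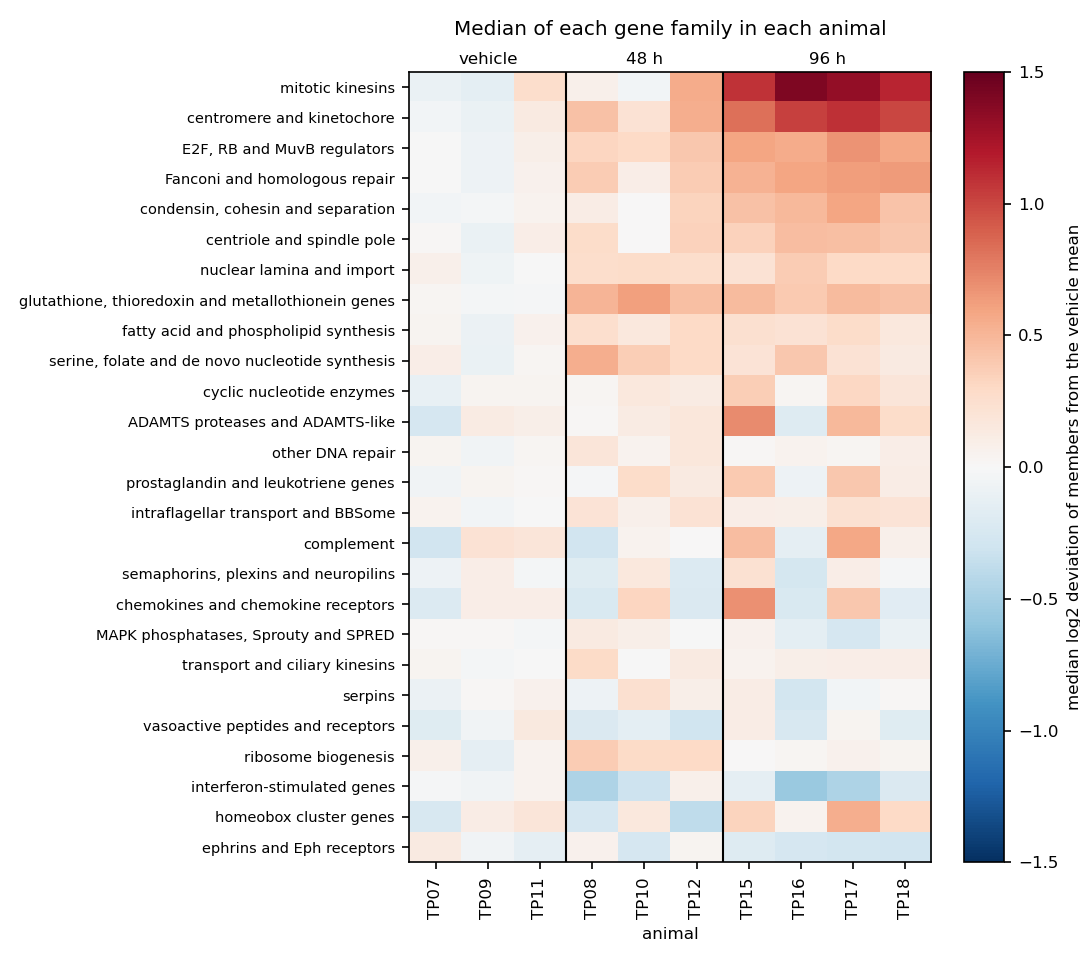
Median over the measured members of each of the 26 gene families of the log2 deviation from the vehicle mean, in each animal (columns: 3 vehicle, 3 at 48 h, 4 at 96 h). Red is above and blue below vehicle. Mitotic kinesins lie between 1.08 and 1.40 in all 96 h animals, while the ADAMTS row runs from -0.19 in TP16 to 0.70 in TP15.

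Metabolic families were higher in part. Serine, folate and de novo nucleotide synthesis enzymes, which make one-carbon units and bases, gave 8 higher and none lower of 28 measured (30 listed), the list's median being 0.20 (log2). The share of 28.6% higher stood against 17.3% of all symbols. Next to PSAT1 (1.19), SHMT2 (0.65) and PSPH (0.65) of serine and glycine synthesis, the folate enzymes were called. MTHFD2, the mitochondrial folate dehydrogenase (chr13:75211198-75228763), rose from 26.2, 22.6 and 32.0 CPM to 70.3, 57.0, 76.0 and 57.8 CPM (log2 fold change 1.28 ± 0.14, adjusted p = 0.000442), and its cytosolic counterpart MTHFD1 from 35.1, 34.1 and 36.5 CPM to 59.4, 64.5, 61.3 and 59.99 CPM. CAD, which starts pyrimidine synthesis, rose from 115, 114 and 91.4 CPM to 151, 188, 161 and 164 CPM. The purine enzymes PPAT (-0.23), GART (0.12), PFAS (0.13), PAICS (0.17), ADSL (0.20) and ATIC (0.31) did not pass.

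Ribosome biogenesis genes, which process ribosomal RNA, gave 2 higher and none lower of 33 measured (34 listed), and their median was 0.07 (log2). The share of 6.06% was under the 17.3% of all symbols. With upper-quartile scaling the balance of calls turned, to 1 higher and 4 lower. FBL, the methyltransferase of ribosomal RNA, rose from 49.1, 42.2 and 50.4 CPM to 74.6, 60.8, 70.9 and 67.3 CPM, and NHP2, the other call, was lost without any one of TP09, TP11, TP15, TP16 or TP17 (adjusted p = 0.061 to 0.14). NHP2 was lower at 96 h than at 48 h, where it stood at 55.2, 47.3 and 48.3 CPM (log2 difference -0.55, adjusted p = 0.034). The list's median log2 difference of 96 h from 48 h was -0.30, against -0.02 for all symbols, with NHP2 the only call.

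Of 28 measured fatty acid and phospholipid synthesis genes (30 listed), 10 rose and 1 fell, and the median member stood at 0.23 on the log2 scale. The shares of 35.7% higher and 3.57% lower stood against 17.3% and 6.9% of all symbols. The desaturases rose together: FADS2 (chr14:12366028-12415180) from 27.0, 35.3 and 41.0 CPM to 129, 86.4, 129 and 88.0 CPM (log2 fold change 1.65 ± 0.21, adjusted p = 0.000857), FADS1 by 0.92 and SCD by 0.74. ACSL6, which activates long polyunsaturated fatty acids, rose from 48.9, 37.6 and 51.8 CPM to 110, 165, 154 and 123 CPM. DGAT2, the enzyme of the last step of triacylglycerol synthesis, fell from 32.1, 24.5 and 31.8 CPM to 12.4, 15.8, 10.7 and 17.9 CPM (log2 fold change -1.05 ± 0.20, adjusted p = 0.00565). The higher calls numbered 6 without TP07 or TP17, and upper-quartile scaling gave 5 higher and 3 lower. Leaving out both animals over 20 months old also gave 6 higher.

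Glutathione, thioredoxin and metallothionein genes, which reduce peroxides and conjugate reactive compounds, were the family outside cell division with the most calls. Of 41 measured (44 listed), 21 rose and 1 fell, the list's median being 0.42 (log2), and none was called between 48 h and 96 h. GSTP1 (chr14:6788893-6792069) rose from 116, 120 and 110 CPM to 197, 168, 184 and 175 CPM (log2 fold change 0.65 ± 0.08, adjusted p = 0.00079). The mitochondrial peroxiredoxin PRDX3 rose from 124, 119 and 130 CPM to 204, 172, 208 and 202 CPM. TXN (0.81), TXN2 (0.63), CAT (0.53) and NQO1 (1.33) also rose.

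GSTA3, which also isomerises steroid intermediates, rose from 216, 205 and 211 CPM to 321, 394, 370 and 378 CPM, and its relatives GSTA1, GSTA2 and GSTA4 by 2.02, 2.65 and 0.44 on the log2 scale. GSTA1, GSTA2 and GSTA3 are near-identical copies, so reads may be shared between them and their single values are uncertain. GSTT1, a theta-class transferase, fell from 8.49, 12.2 and 8.85 CPM to 5.62, 3.36, 5.21 and 4.23 CPM. The superoxide dismutases SOD1 (-0.23) and SOD2 (-0.14), the stress-induced HMOX1 (0.08) and TXNRD1 (-0.11) did not pass, nor did any of the 4 measured metallothioneins.

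**Figure D4:**
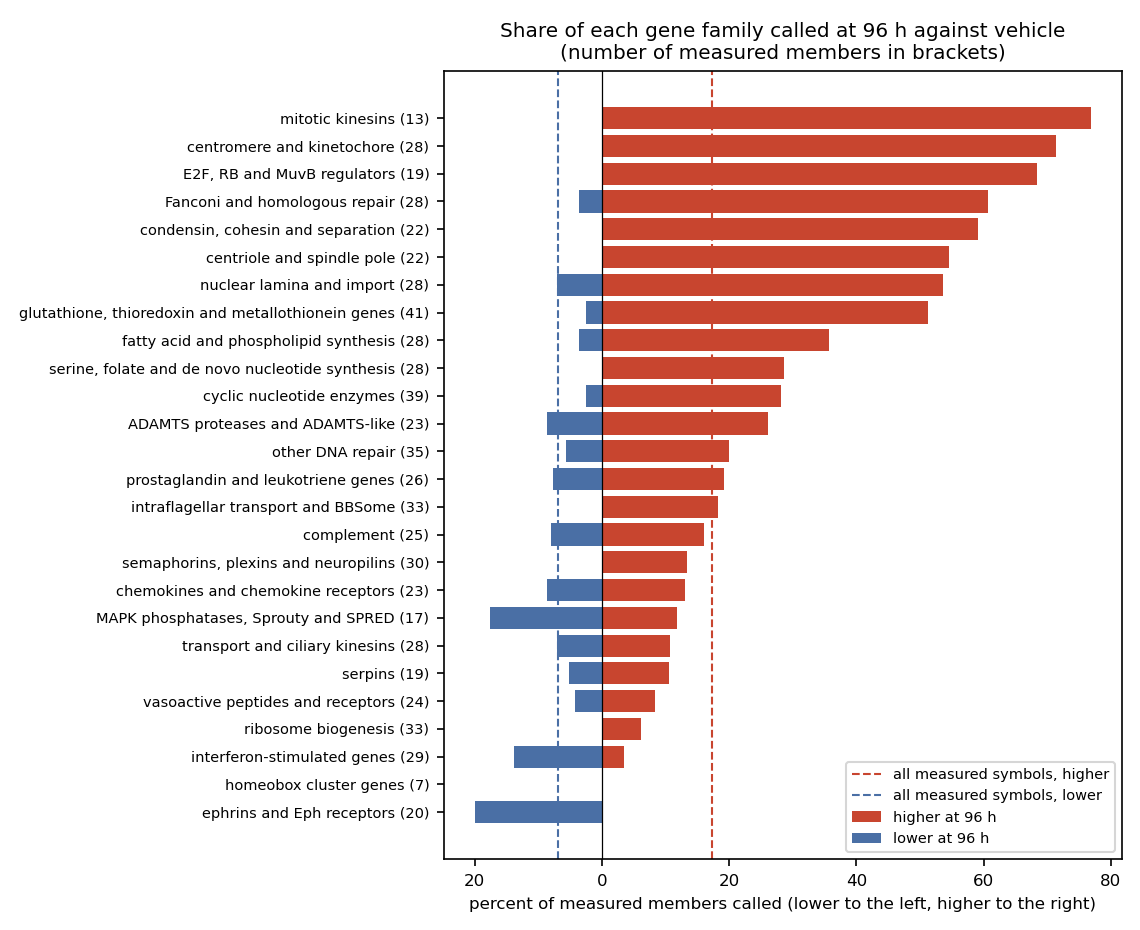
Percent of the measured members of each family called higher (red, right) or lower (blue, left) at 96 h, with the number measured in brackets. Dashed lines mark the shares over all 14120 symbols, 17.3% higher and 6.9% lower. Mitotic kinesins stand at 10 of 13 higher and ephrins and Eph receptors at 0 of 20 higher and 4 of 20 lower.

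Both gonadotropin receptors signal through cyclic AMP, which adenylyl cyclases make, protein kinase A reads and phosphodiesterases remove. Of 39 measured genes of cyclic nucleotide enzymes and their partners (41 listed), 11 rose and 1 fell (median log2 change 0.33). The 28.2% higher was above the 17.3% of all symbols, and the 2.56% lower was under their 6.9%. ADCY5, an adenylyl cyclase (chr2:44510819-44675904), rose from 31.6, 31.0 and 38.5 CPM to 88.1, 62.7, 81.2 and 65.0 CPM (log2 fold change 1.14 ± 0.13, adjusted p = 0.000543), with the 48 h animals between at 57.2, 59.2 and 54.8 CPM. Of the protein kinase A subunits, the catalytic PRKACA rose from 10.3, 15.2 and 11.6 CPM to 32.3, 21.3, 28.7 and 19.8 CPM, and the regulatory PRKAR2B from 110, 144 and 113 CPM to 169, 230, 208 and 183 CPM. PRKACB (0.48) and PRKAR1A (0.33) also passed, while PRKAR1B (0.04) did not. The kinase inhibitors PKIA (0.91) and PKIG (0.40) also rose.

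Among the cyclases ADCY1 fell (-0.61), a call lost without TP07 or TP11 (adjusted p = 0.074 and 0.073), while ADCY6 (0.51) and ADCY3 (0.37) rose. Of the phosphodiesterases, PDE7B (0.50) and PDE6D (0.54) were called, PDE7B not without TP07 (adjusted p = 0.057). PDE4A (0.69), PDE4B (0.45), PDE4D (-0.59) and PDE8B (-0.23) did not pass. The higher calls of the cyclic nucleotide list fell to 4 without TP07, 6 without TP09, 4 without TP11, 7 without TP17 and 5 with upper-quartile scaling, and the lower calls numbered 5 under that scaling, 3 without TP18 and 0 without TP11. With age as a covariate 7 were higher, and ADCY1 lost its call (adjusted p = 0.056). Without both animals over 20 months old 3 were higher and none lower.

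Vasoactive peptides and their receptors gave 2 higher and 1 lower of 24 measured (32 listed). These shares, 8.33% and 4.17%, were under the 17.3% and 6.9% of all symbols. The median member stood at -0.11 on the log2 scale. The endothelin ligand and its receptor went opposite ways. EDN1 (chr4:12521622-12530930) fell from 9.61, 6.07 and 5.72 CPM to 2.47, 3.04, 1.01 and 1.41 CPM (log2 fold change -1.84 ± 0.35, adjusted p = 0.00627). EDNRA, its receptor on contractile cells, rose from 29.9, 64.0 and 66.0 CPM to 239, 124, 258 and 107 CPM (log2 fold change 1.77 ± 0.38, adjusted p = 0.0131), again with TP15 and TP17 highest, and lost its call without both animals over 20 months old (adjusted p = 0.057). The summed endothelial markers given above overlapped between the groups, and the contractile marker MYH11 was at 873, 286, 722 and 458 CPM at 96 h against 271 to 302 CPM in vehicle. Whether the share of contractile cells bears on EDNRA was not tested. AGTR2, an angiotensin receptor gene, had a log2 fold change of 2.68 that did not pass the test. Without TP16 the higher calls numbered 4.

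Prostaglandin and leukotriene genes gave 5 higher and 2 lower of 26 measured (32 listed). These shares, 19.2% and 7.69%, were near the 17.3% and 6.9% of all symbols, and the list's median was 0.23 (log2). PTGES, the inducible prostaglandin E2 synthase (chr15:8962936-8979552), rose from 2.38, 2.87 and 2.78 CPM to 17.3, 5.03, 18.3 and 10.9 CPM (log2 fold change 2.26 ± 0.46, adjusted p = 0.00983), while the cyclooxygenase genes PTGS1 (0.39) and PTGS2 (-0.31) did not pass. PTGFR, the receptor for prostaglandin F2 alpha, fell from 11.8, 8.22 and 7.17 CPM to 3.20, 3.58, 4.05 and 3.02 CPM, and CYSLTR2, a receptor for cysteinyl leukotrienes, by 0.75, a call lost without TP09, TP11 or TP17 (adjusted p = 0.058 to 0.072). The leukotriene C4 synthase gene LTC4S rose from 3.73, 4.27 and 5.62 CPM to 10.8, 7.89, 8.91 and 10.8 CPM. LTC4S, HPGDS (1.54) and ALOX5AP (1.19) are genes that myeloid and mast cells express. The summed macrophage markers were above all vehicle animals in TP15, TP17 and TP18 (525, 517 and 397 CPM). In TP16, at 269 CPM, they were near TP09 and TP11 (260 and 256 CPM). The part of myeloid and mast cells in the result was not tested. ALOX5AP lost its call without TP07, TP09 or TP17 (adjusted p = 0.054 to 0.070), and PTGES3 (0.35) without TP07 or TP11 (adjusted p = 0.057 and 0.074). The higher calls numbered 2 without TP07 and 3 without TP11 or TP17. Without both animals over 20 months old 3 were higher and 1 lower.

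Ephrins and their Eph receptors signal between touching cells and hold tissue boundaries. Of 20 measured (22 listed), 4 fell and none rose (median log2 change -0.39). All 4 were A-type receptors: EPHA2 (chr1:15053393-15087891) fell from 23.4, 13.7 and 13.7 CPM to 7.89, 8.25, 8.45 and 7.37 CPM (log2 fold change -1.08 ± 0.21, adjusted p = 0.00674), and EPHA6 from 13.7, 11.7 and 14.4 CPM to 5.71, 8.47, 4.86 and 8.03 CPM. EPHA1 (-0.94) lost its call without TP07 or TP17 (adjusted p = 0.097 and 0.054). EPHA10 (-0.70) lost it without TP07, TP09, TP15 or TP17 (adjusted p = 0.074 to 0.15). None of the 5 measured B-type receptors passed (log2 fold changes from -0.03 to 0.81), nor did any of the 6 measured ligands. The 4 lower calls became 2 without TP07 or TP17 and 7 with upper-quartile scaling. With age as a covariate 2 were left, EPHA1 and EPHA10 being lost (adjusted p = 0.060 and 0.11). Leaving out both animals over 20 months old left 1. Without TP16, 1 member was called higher, and EPHA6 lost its call without both animals over 20 months old (adjusted p = 0.056).

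Semaphorins, plexins and neuropilins, the guidance ligands and receptors of axons and vessels, gave 4 higher and none lower of 30 measured (31 listed). The share of 13.3% higher was under the 17.3% of all symbols, and the median member stood at -0.03 on the log2 scale. SEMA3C, a secreted ligand (chr3:113179812-113501516), rose from 111, 86.3 and 146 CPM to 221, 284, 337 and 316 CPM (log2 fold change 1.34 ± 0.24, adjusted p = 0.0059), with the 48 h animals also above all vehicle animals at 369, 199 and 276 CPM. PLXNC1, the receptor for SEMA7A, rose from 223, 203 and 199 CPM to 262, 351, 302 and 371 CPM. SEMA6A (0.79) lost its call without any one animal but TP16 or TP18, and PLXNA1 (0.64) without any one animal but TP15 (adjusted p = 0.051 to 0.11 for both genes). The higher calls numbered 2 without TP07, TP09, TP11 or TP17. They also numbered 2 with age as a covariate and without both animals over 20 months old, SEMA6A and PLXNA1 being lost in each. There was 1 lower call without TP17 or TP18, and 2 with upper-quartile scaling.

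The phosphatases and Sprouty proteins that restrain MAP kinase signalling gave 2 higher and 3 lower of 17 measured (18 listed), the list's median being -0.10 (log2). The 11.8% higher was under the 17.3% of all symbols, and the 17.6% lower was above their 6.9%. DUSP1, an early-response phosphatase, rose from 25.9, 22.6 and 28.5 CPM to 41.9, 59.0, 66.6 and 40.2 CPM (log2 fold change 1.02 ± 0.20, adjusted p = 0.00696), and DUSP6, specific for ERK, from 32.1, 31.7 and 31.1 CPM to 44.2, 38.4, 46.1 and 48.0 CPM. DUSP8, which acts on JNK and p38, fell from 5.68, 4.59 and 4.36 CPM to 2.61, 2.42, 2.23 and 2.39 CPM (log2 fold change -1.01). SPRY1 (-0.63) lost its call without TP09 or TP11 (adjusted p = 0.082 and 0.059), leaving 1 lower call in either case, and DUSP5 (-0.75) without TP07, TP09, TP11 or TP15 (adjusted p = 0.063 to 0.10). The lower calls numbered 6 with upper-quartile scaling and 5 with a filter at a mean of 50 counts.

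ADAMTS proteases and ADAMTS-like proteins, which cut proteoglycans and procollagens, gave 6 higher and 2 lower of 23 measured (24 listed), and their median was 0.33 (log2). The 26.1% higher was above the 17.3% of all symbols, and the 8.7% lower was near their 6.9%. ADAMTS9, which cleaves versican and aggrecan (chr2:77045623-77562392), rose from 15.98, 24.95 and 22.6 CPM to 69.7, 73.8, 70.2 and 61.8 CPM (log2 fold change 1.70 ± 0.15, adjusted p = 0.000147). It was even across the animals, and the 48 h animals stood at 65.4, 70.8 and 78.0 CPM. ADAMTS12 and ADAMTS15 were uneven instead: ADAMTS12 was at 31.1, 43.7 and 48.6 CPM in vehicle and at 106, 72.5, 104 and 64.4 CPM at 96 h, and ADAMTS15 at 8.75, 6.71 and 7.37 CPM in vehicle and 27.1, 12.99, 29.6 and 11.8 CPM at 96 h. ADAMTS15 (1.42) lost its call without TP09 or TP11 (adjusted p = 0.061 to 0.065), and ADAMTS4 (1.10) without TP07 or TP09 (adjusted p = 0.052 to 0.058). The higher calls numbered 3 without TP07 or TP11. The lower calls were ADAMTS19 (-0.76) and ADAMTS20 (-0.95), and no lower call was left without TP07, TP11, TP15 or TP17, and 1 without TP09.

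Serpins, which block serine proteases or act as chaperones, gave 2 higher and 1 lower of 19 measured (26 listed). These shares, 10.5% and 5.26%, were under the 17.3% and 6.9% of all symbols. The median member stood at -0.15 on the log2 scale. SERPINH1, the collagen chaperone HSP47, rose from 168, 184 and 170 CPM to 389, 222, 410 and 335 CPM (log2 fold change 0.96 ± 0.17, adjusted p = 0.00509). SERPINB9, an inhibitor of granzyme B, fell from 157, 128 and 152 CPM to 86.9, 95.9, 106 and 97.5 CPM. The higher calls numbered 1 without TP07, TP09, TP15 or TP17.

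Complement genes gave 4 higher and 2 lower of 25 measured (30 listed), shares near the background of 17.3% and 6.9%, and the list's median was 0.20 (log2). CFD, the serine protease that starts the alternative pathway, fell from 8.16, 12.8 and 10.2 CPM to 4.31, 2.03, 3.95 and 2.66 CPM (log2 fold change -1.69 ± 0.30, adjusted p = 0.0046). C3, the central component, had a log2 fold change of -0.12 and did not pass. C1QA was at 35.6, 17.3, 37.6 and 27.5 CPM at 96 h against 5.81, 16.3 and 14.8 CPM in vehicle, and ITGAM, the alpha chain of complement receptor 3, at 23.5, 11.4, 20.6 and 14.9 CPM against 5.61, 10.2 and 9.05 CPM.

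C1QA and ITGAM are macrophage genes, and across animals they stood in the order of the summed macrophage markers in that TP15 and TP17 were highest and TP07 lowest. The part of macrophage number in the result was not tested. Both calls were lost when single animals were left out, C1QA without any but TP16 (adjusted p = 0.051 to 0.10) and ITGAM without any but TP16 or TP18 (adjusted p = 0.057 to 0.14). MASP1 (0.99) lost its call without any one animal but TP17, and C4B (-1.46), whose near-identical copy C4A can share its reads, overlapped between groups and lost its call without TP09, TP11 or TP17 (adjusted p = 0.063 to 0.077), which left CFD the 1 lower call. The higher calls of the complement list ranged from 0 without TP11 to 2 without TP17 or TP18 and were 1 without TP07, TP09 or TP15. Upper-quartile scaling also gave 1, as did age as a covariate and leaving out both animals over 20 months old.

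Chemokines and their receptors gave 3 higher and 2 lower of 23 measured genes, and 32 of the 55 listed were not measured. The share called higher was under the 17.3% of all symbols, and the share called lower was near their 6.9%. The median log2 fold change was 0.23. The fractalkine receptor CX3CR1 (chr2:103394803-103424229), a gene of resident macrophages, rose from 1.52, 1.44 and 2.88 CPM to 6.83, 6.48, 5.97 and 4.35 CPM (log2 fold change 1.60 ± 0.30, adjusted p = 0.00566), and its ligand CX3CL1 was at 1.98, 3.11 and 2.29 CPM in vehicle and 6.63, 4.20, 4.10 and 4.35 CPM at 96 h (0.97, adjusted p = 0.0286, or 0.060 to 0.11 without TP07, TP11 or TP15). The summed macrophage markers were above all vehicle animals in TP15, TP17 and TP18. In TP16 they were at 269 CPM, near TP09 and TP11 (260 and 256 CPM), and CX3CR1 was at 6.48 CPM. The part of macrophage number in these results was not tested. CXCR2, a receptor for neutrophil-attracting chemokines, fell from 10.1, 4.71 and 9.63 CPM to 4.31, 2.28, 3.14 and 3.64 CPM, a call lost without TP07, TP11 or TP17 (adjusted p = 0.054 to 0.083). The scavenging receptor ACKR3 fell by 0.58, a call lost without TP07 (adjusted p = 0.086), and CCR2 rose by 1.09, a call lost without any one of TP07, TP09, TP15, TP17 or TP18 (adjusted p = 0.065 to 0.12). Without TP07 the list held 1 higher and no lower call, without TP15 1 higher call, and without TP11 or TP17 1 lower call. CCL2 (1.29) did not pass.

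Interferon-stimulated genes gave 1 higher and 4 lower of 29 measured (34 listed), and their median was -0.37 (log2). The 3.45% higher was under the 17.3% of all symbols, and the 13.8% lower was above their 6.9%. The sensor gene DDX58 (RIG-I) was at 86.1, 68.8 and 88.8 CPM in vehicle and at 61.0, 51.4, 50.8 and 53.2 CPM at 96 h (log2 fold change -0.59 ± 0.15, adjusted p = 0.0264), and IFIT3 at 89.4, 88.1 and 98.7 CPM against 69.7, 40.6, 55.2 and 53.6 CPM. IFITM3 was called higher (0.95) and was also at 39.96, 65.5 and 58.3 CPM at 48 h against 20.3, 26.3 and 30.1 CPM in vehicle. USP18 (-0.90) was also called lower. Each of the 5 calls was lost without at least 3 of the 7 animals taken singly: no lower call was left without TP07, TP11 or TP17 and 1 without TP16 or TP18, IFITM3 was lost without TP07, TP09 or TP17, and upper-quartile scaling gave 7 lower. With age as a covariate 2 lower calls and no higher call were left. Without both animals over 20 months old no call was left in either direction.

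Intraflagellar transport and BBSome genes, which build and supply the cilium, gave 6 higher and none lower of 33 measured (35 listed), a share of 18.2% that was near the background of 17.3%, and the median member stood at 0.15 on the log2 scale. IFT57 rose from 31.5, 32.3 and 33.6 CPM to 48.4, 41.9, 46.7 and 46.3 CPM (log2 fold change 0.50 ± 0.08, adjusted p = 0.00325), and MKKS, a chaperonin-like gene of BBSome assembly, from 18.6, 21.7 and 21.1 CPM to 29.3, 27.5, 35.1 and 29.2 CPM. IFT80 (0.75) shares its locus boundaries with SMC4, and reads of the 2 genes may not have been told apart. Of 39 listed homeobox cluster genes 7 were measured and none was called: HOXD8 had a log2 fold change of 0.60 (adjusted p = 0.0515, or 0.011 without TP16) and HOXD3 of 0.40.

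**Figure D5:**
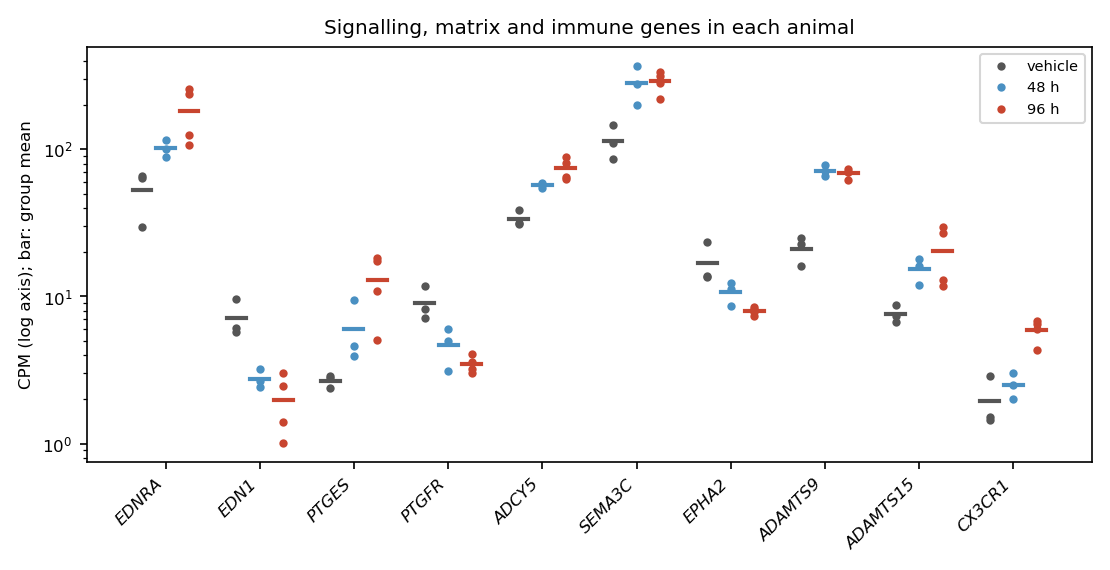
Level (CPM, log axis) in each animal of 10 signalling, matrix and immune genes named in the text, with 1 point per animal and a horizontal bar at each group mean. EDN1 lies between 1.01 and 3.04 CPM at 96 h against at least 5.72 CPM in vehicle, while EDNRA lies between 107 and 258 CPM at 96 h against at most 66.0 CPM.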

How the data were processed

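Total RNA libraries from 10 testes were analysed. Per the submitters' processing notes, the build was rheMac8 and the tools included HTSeq 0.6.1p1, edgeR, Bowtie2 2.2.8, TopHat2 2.1.1, Cufflinks 2.2.1 and cutadapt 1.9.1 (their roles and order are not given in the sources used here). The authors deposited raw read counts per locus and CPM values. A first set of deposited CPM equals the count divided by the library total over the loci kept, and another set is over a larger total. The limit of 1 CPM in at least 3 libraries was checked on the latter set. Loci without a name numbered 8161 (30.4%).

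The counts were fitted by edgeR (4.0.16, under R 4.3.3), with a robust quasi-likelihood fit after TMM scaling, of 3 group means on all 10 libraries, 96 h minus vehicle, and Benjamini-Hochberg adjustment over 26813 loci, with SE as the log2 fold change divided by the square root of F. CPM printed here are TMM-scaled. The procedure was tested on counts simulated from the mean of each locus, with changes set at loci of at least 50 mean counts. It called 29 of 50 loci raised 2-fold and 22 of 50 lowered to 0.5 of their level. At 4-fold and at 0.25 it called 46 of 50 each. A gene that did not pass may therefore still have changed. DESeq2 1.42.0, limma 3.58.1, other scalings, a filter at 50 counts, age, and left-out animals were alternatives. Animals are the replicates. The p-values set the difference between groups against an estimated spread between animals, which drew on all loci and all 3 groups.

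Genes were named by a rule. In each family these were up to 4 called members of smallest p in the main direction and up to 2 in the other. Where none was called, values were given for up to 2 members. The 12 largest rises and 12 largest falls outside the classic lists were added. Other members are given as values, and were chosen after their values were seen. The families and lists were chosen with earlier results of these data known. Symbols came from the deposited table and 2 reference tables. Promoter and protein sequences were not used here, and some genes the rule names are not reported here.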

Additional observations from a re-analysis of the deposited data

Results flagged for a closer look

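The values at 96 h and at 48 h differed from one another, by the edgeR quasi-likelihood test of 96 h minus 48 h, for the following genes named by rule. Both changes are measured against the same vehicle animals, but the test itself compares the 96 h and 48 h animals. On the log2 scale the spindle motors were higher at 96 h by 0.91 (KIFC1), 1.67 (KIF20A), 1.47 (KIF11) and 1.22 (KIF23). Centromere genes were higher by 0.90 (CENPI), 0.85 (CENPM), 0.67 (CENPN) and 0.97 (CENPW), and condensin and separase genes by 1.14 (NCAPD2), 0.82 (SMC4) and 1.22 (ESPL1). Spindle genes were higher by 1.21 (HMMR), 1.42 (CEP55), 0.99 (TPX2) and 1.76 (NUSAP1). The differences were 0.52 for BRCA1, 0.84 for POLQ, 0.81 for MYBL2, 1.45 for E2F7, 1.33 for FOXM1 and 2.09 for FAM64A. Of the nuclear envelope genes, LMNB1 was higher by 0.50, TMPO by 0.62 and SUN2 by 0.55. NHP2, of ribosome biogenesis, was the 1 gene among these with a negative difference, -0.55.

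In 5 genes 1 animal of the 96 h group stood far from the other 3, by a criterion that chance meets in about 1 in 20 groups. The criterion was applied to the 139 genes named by rule, so this many flags can arise by chance. TP15 was high for CX3CL1 (6.63 CPM) and for C4B (28.8 CPM). TP17 was low for ADAMTS20 (2.18 CPM), TP16 was low for PRDX3 (172 CPM), and TP18 was high for SLC25A18 (0.666 CPM).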

How the results depend on the processing

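The number of loci higher at 96 h was 2836 as reported, 1687 with upper-quartile scaling, 1449 without both animals over 20 months old and 1170 at an adjusted p of 0.01. The number lower was 1848 as reported, 3532 with upper-quartile scaling, 861 with age as a covariate, 492 without both older animals and 350 at an adjusted p of 0.01. With 1 animal left out at a time, the higher loci numbered from 1592 (without TP07) to 2777 (without TP16), with 1612 without TP11. The lower loci numbered from 618 (without TP07) to 1855 (without TP18), with 707 without TP11, 875 without TP17 and 1153 without TP09. The cause of these moves was not tested, beyond fewer animals entering the fit. Of 139 named genes none changed direction under any alternative run, and 93 of the 137 called kept the call in all 16 alternatives besides the stricter threshold. Of 416 family medians recomputed, 33 moved by more than the spread between replicates. The median of the serpins turned to 0.04 without TP07. No paired analysis was possible because the groups hold different animals that share no replicate numbers. All 96 h animals were 14 months old, so age and treatment overlap in part.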

Other observations

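Groups of genes that share a symbol prefix were looked at after their values had been seen, so they are descriptions. Over all symbols 17.3% were called higher and 6.9% lower. Of 25 measured genes with the prefix SEC, that of parts of the secretory pathway, 10 (40%) were called higher and none lower. Their median log2 fold change was 0.36. SEC24D, of the COPII coat, was at 43.4, 57.2 and 58.4 CPM in vehicle and at 123, 102, 133 and 87.5 CPM at 96 h, and SEC13 at 45.2, 43.1 and 43.2 CPM against 76.0, 61.8, 68.1 and 60.7 CPM. Of 62 genes with the prefix RAB, that of small GTPases of membrane traffic, 18 (29.0%) were called higher and none lower. RAB9B was at 3.86, 4.03 and 4.68 CPM in vehicle and at 9.20, 12.3, 11.4 and 11.2 CPM at 96 h. With upper-quartile scaling the counts were 7 higher and 1 lower for SEC genes and 9 higher and 4 lower for RAB genes.

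Of 21 NUP genes, of the nuclear pore, 9 (42.9%) were called higher and 1 (4.76%) lower, or 4 higher and 1 lower with upper-quartile scaling. NUP62CL, a relative of a central channel protein, was at 7.0, 6.35 and 8.21 CPM in vehicle and at 29.4, 42.8, 42.5 and 32.0 CPM at 96 h, a log2 fold change of 2.35. Of 39 genes with the interleukin prefix IL, 6 (15.4%) were called lower and none higher, against 6.9% and 17.3% of all symbols. IL1RAP, the shared co-receptor of interleukin 1, was at 29.9, 31.0 and 27.6 CPM in vehicle and at 19.5, 13.5, 21.6 and 18.7 CPM at 96 h. Of 376 ZNF genes, 5.05% were called higher, under the 17.3% of all symbols, and 6.38% lower, near the 6.9% of all symbols. With upper-quartile scaling 81 were called lower and 6 higher.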
